A study of Homo sapiens and Mus musculus with 17 samples.

Results

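Loss of HRD1 was examined in HEK293T, an established human embryonic kidney cell line that carries the SV40 large T antigen. The comparison used 6 of the 17 RNA-seq libraries of the study, 3 from cultures labelled HRD1 KO and 3 from cultures labelled WT, chosen by genotype and paired by the replicate number in the labels. HRD1 KO cells were made with CRISPR/Cas9 and a single guide RNA, and WT cells had received the plasmid without a guide. Both groups were grown in the same DMEM medium with serum and without a further treatment. Whether a knockout culture is 1 clone or a pool is not given in the sources used here. The 3 SEL1L KO cultures of the same line entered the comparison of the 2 knockouts, the check of the labels and an alternative fit of 9 libraries, and the 8 libraries of mouse brown adipose tissue were not used here. Levels are FPKM, fragment numbers scaled to transcript length and library size. Fold changes are on log2(FPKM + 0.1), a scale on which the change of a weakly expressed gene comes out too small.

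HRD1, encoded by SYVN1, is the ubiquitin ligase of an ER-associated degradation (ERAD) complex. SEL1L is its scaffold, the lectins OS9 and ERLEC1 hand over glycoprotein substrates, Derlins and HERPUD1 are membrane cofactors, and the ATPase VCP with UFD1 and NPLOC4 pulls the ubiquitinated chains into the cytosol for the proteasome. When unfolded proteins build up in the ER lumen, the sensors ATF6, IRE1 (ERN1) and PERK (EIF2AK3) start the unfolded protein response (UPR). ATF6 and the spliced form of XBP1 drive chaperone, folding and ERAD genes, and PERK acts through ATF4 and DDIT3.

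SYVN1 (ENSG00000162298; GRCh38 chromosome 11, 65121780 to 65134532, minus strand) checks the labels only in part, since a frameshift need not lower an mRNA. It had FPKM values of 16.95, 16.7 and 16.92 in WT replicates 1 to 3 and of 22.5, 18.5 and 19.8 in those labelled HRD1 KO. The mRNA was thus not lower in any of these (log2 fold change 0.26, SE 0.17, limma adjusted p = 0.928), and these are called the labelled libraries below. In the SEL1L KO libraries SYVN1 was at 28.9, 28.4 and 25.9 FPKM, above the values of all labelled libraries. HRD1 KO minus SEL1L KO was -0.45 for SYVN1 in the fit of 9 libraries (SE 0.14, limma unadjusted p = 0.0102, adjusted p = 0.551). SEL1L mRNA was at 1.82, 3.36 and 2.59 in the SEL1L KO libraries against 4.39, 8.74 and 12.85 in WT.

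Of 62714 genes in the table, 15129 reached an FPKM of 1 in 3 or more of the 6 libraries and were tested. Relative depth, estimated from the smallest values of weakly expressed genes, varied 1.56 times over the 6 libraries, with HRD1 KO replicate 2 the shallowest. Of 10 genes listed as HEK293T identity markers, 8 were tested, and PAX8 and SOX11 were at or near 0. Markers of fibroblasts, brown adipocytes, and liver or intestine summed to at most 27.3 FPKM in any library, and most of that was COL1A1, PPARG and CDX2, with COL1A2, ADIPOQ and FABP1 at 0. The blood cell markers PTPRC and HBB were at 0.

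At an adjusted p under 0.05 (limma with the replicate number as a block, Benjamini-Hochberg over 15129 genes), 12 genes rose in the labelled libraries, which is 0.0793% of the genes tested, and 0 fell (0.0%). In all 12 the groups did not overlap, but ENSG00000284660, at 0 in WT, passed the filter on FPKM only through the labelled libraries and had to differ. As these are bulk libraries, more cells expressing a gene and more RNA per cell cannot be told apart. A total of 8 were ER chaperones and protein disulfide isomerases, another 2 (HERPUD1 and DERL3) belonged to the HRD1 complex list, and SLC22A31 and the unnamed pseudogene ENSG00000284660 were in no list. The lists were written with earlier results of these data known, so counts within them are no separate support. At an unadjusted p under 0.05, 421 genes were higher (2.78%) and 462 lower (3.05%). Every value of the labelled libraries lay above every WT value in 299 genes (1.98%) and below in 460 (3.04%). The median log2 fold change of all genes tested was -0.05, with quartiles of -0.22 and 0.11. Without the replicate block 2 of the 12 genes (PDIA4 and ENSG00000284660) remained called, and 135 genes were higher and 117 lower at an unadjusted p under 0.05. The other 10 had adjusted p of 0.0967 to 0.224 without the block. Leaving out 1 pair called 16 genes higher and 2 lower without replicate 1, 56 and 47 without replicate 2, and 26 and 22 without replicate 3. With no filter on low FPKM none of the 12 was called, and the adjusted p of HSPA5 was 0.0595.

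**Figure D1:**
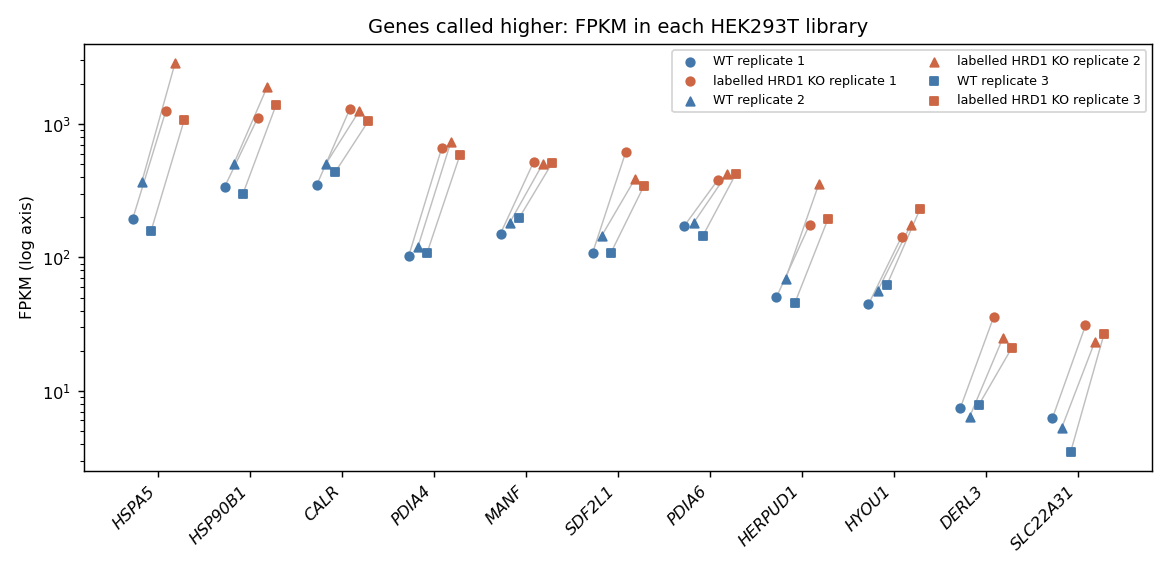
FPKM (log axis) of the 11 named genes called higher, with WT libraries in blue and libraries labelled HRD1 KO in orange; marker shapes give the replicate number and grey lines join the pairs. In each gene all 3 orange points lie above all 3 blue points, from SLC22A31 (3.51 to 6.23 in WT) up to HSPA5 (1068 to 2846 in the labelled libraries).

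The sequences below belong to 7 of the 12 genes called. They are stretches of promoters (250 bases before to 50 after a start site, RefSeq, build GRCh38.p14) that hold the ER stress response element ERSE (CCAAT, then 9 bases of any kind, then CCACG) or its shorter relative ERSE-II (ATTGG, 1 base of any kind, then CCACG), the elements through which ATF6 and NF-Y are known to act. They are written 5′ to 3′ on the gene's strand with the motif in capitals. Where a motif lies on the other strand, the capitals show its reverse complement. Where an annotated exon of another transcript covers the stretch, only 5 bases on each side are shown.
HSPA5, chr9:125241383-125241429, minus strand: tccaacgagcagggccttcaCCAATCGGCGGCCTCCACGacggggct
HSP90B1, first site, chr12:103930211-103930239, plus strand: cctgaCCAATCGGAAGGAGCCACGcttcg
HSP90B1, second site, chr12:103930316-103930344, plus strand: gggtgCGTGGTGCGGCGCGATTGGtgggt
CALR, chr19:12938364-12938410, plus strand: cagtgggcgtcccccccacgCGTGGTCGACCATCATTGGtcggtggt
PDIA6, chr2:10812845-10812891, minus strand: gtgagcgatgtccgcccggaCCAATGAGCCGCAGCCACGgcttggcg
HERPUD1, chr16:56932005-56932043, plus strand: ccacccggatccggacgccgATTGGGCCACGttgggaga
HYOU1, first site, chr11:119057372-119057410, minus strand: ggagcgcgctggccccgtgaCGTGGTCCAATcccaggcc
HYOU1, second site, chr11:119057266-119057304, minus strand: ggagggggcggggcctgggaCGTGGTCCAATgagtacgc
SDF2L1, chr22:21642094-21642132, plus strand: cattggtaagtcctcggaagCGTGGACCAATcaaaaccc

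Genes of the lumenal HSP70 and HSP90 machinery rose. HSPA5 (BiP, ENSG00000044574), the HSP70 chaperone that holds the UPR sensors inactive, was at 194, 369 and 158 FPKM in WT and at 1247, 2846 and 1068 in the labelled libraries. Its level thus varied over the replicate numbers in both groups, and within each pair the labelled library was higher by 2.68, 2.95 and 2.76 on the log2 scale. The fold change was 6.95 (log2 2.80, SE 0.13, adjusted p = 0.000469). HSP90B1 (GRP94), the ER member of the HSP90 family, was at 338, 504 and 301 FPKM in WT and at 1112, 1877 and 1393 in the labelled libraries (log2 1.94, SE 0.14, adjusted p = 0.0037). HYOU1 (GRP170), a nucleotide exchange factor for BiP, rose from 44.4, 56.2 and 62.0 to 143, 175 and 229 FPKM (log2 1.73, SE 0.14, adjusted p = 0.0067). SDF2L1, which keeps BiP and its J-domain partners in cycle, rose from 108, 145 and 108 to 613, 386 and 345 FPKM, most in pair 1 (log2 1.86, SE 0.21, adjusted p = 0.0365). The J-domain proteins DNAJC3 (1.33) and DNAJB11 (0.96) were higher at unadjusted p = 0.000316 and unadjusted p = 0.000379 and did not pass the adjustment.

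Among the protein disulfide isomerases, which form and shuffle disulfide bonds of client proteins, PDIA4 (ERp72) and PDIA6 rose. PDIA4 was at 102, 119 and 108 FPKM in WT and at 659, 734 and 589 in the labelled libraries, with little spread in either group (log2 2.59, SE 0.13, adjusted p = 0.000564). It was one of 2 genes that also passed without the replicate block (adjusted p = 0.0034). PDIA6 was at 173, 182 and 145 FPKM in WT and at 379, 421 and 425 in the labelled libraries (log2 1.29, SE 0.14, adjusted p = 0.0333). PDIA3 (1.10), the glycoprotein partner of calnexin and calreticulin, P4HB (0.85), the founding member of the family, and the prolyl isomerase PPIB (1.02) were higher at unadjusted p of 0.000148, 0.000207 and 0.000157 with groups that did not overlap.

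CALR (calreticulin), a soluble lectin chaperone that also binds calcium, rose from 347, 501 and 434 to 1291, 1241 and 1045 FPKM (log2 1.49, SE 0.16, adjusted p = 0.0283). MANF, a small ER protein that binds BiP and is also secreted under stress, rose from 151, 182 and 197 to 519, 504 and 509 FPKM. The 3 labelled-library values of MANF differed by less than the WT values did (SD 7.63 and 23.3, n = 3 each), and the log2 fold change was 1.54 (SE 0.14, adjusted p = 0.0107). CRELD2, another small secreted ER stress protein, was at 49.1, 56.2 and 73.1 FPKM in WT and at 152, 95.8 and 159 in the labelled libraries (log2 1.17, unadjusted p = 0.000298, adjusted p = 0.173).

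Of the 31 tested genes of the chaperone and PDI list, 8 rose and 0 fell, 20 were higher and 0 lower at an unadjusted p under 0.05, and 17 did not overlap between groups. The median log2 fold change of the list was 0.80, with a range of -0.36 to 2.80, and 24 of the 31 were higher in all 3 pairs. The medians within pairs 1, 2 and 3 were 0.96, 0.72 and 0.92. This list, too, was written with earlier results of these data known. PDIA3, P4HB, PPIB, CRELD2, DNAJC3 and DNAJB11, like ATF6, ATF4 and ERN1 below, fell outside the naming rule and were chosen after their values were seen.

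Of the ERAD machinery itself, HERPUD1 and DERL3 rose. HERPUD1, a membrane protein with a ubiquitin-like domain that recruits factors to HRD1, was at 50.3, 69.4 and 45.5 FPKM in WT and at 176, 353 and 194 in the labelled libraries (log2 2.08, SE 0.16, adjusted p = 0.0044). DERL3, the stress-inducible Derlin, rose from 7.47, 6.38 and 7.84 to 35.5, 24.8 and 21.1 FPKM (log2 1.86, SE 0.21, adjusted p = 0.0365), and without the replicate 1 pair it no longer passed. SELENOS, a selenoprotein that anchors VCP to the ER membrane, was at 69.0, 66.4 and 62.4 FPKM in WT and at 111, 95.2 and 84.7 in the labelled libraries (log2 0.55, unadjusted p = 0.0055).

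OS9, the lectin of the complex, was higher in every pair (0.66, 0.44 and 0.34; log2 0.48, unadjusted p = 0.0127), although its groups overlapped. NPLOC4, the VCP cofactor, was lower at unadjusted p = 0.0362 (log2 -0.40). SEL1L (ENSG00000071537) was at 3.79, 19.3 and 24.1 FPKM in the labelled libraries, below its WT partner in pair 1 and above it in pairs 2 and 3 (log2 0.61, unadjusted p = 0.0614). DERL1 (0.40) and VCP (0.25) had unadjusted p of 0.0831 and 0.153. Over the 17 tested genes of the complex list, 2 rose, 0 fell, 4 were higher and 1 lower at an unadjusted p under 0.05, and the median was 0.27. The 12 other ER-resident ubiquitin ligases of the list had 0 members called and 0 at an unadjusted p under 0.05 in limma, and their median was -0.11 with a range of -0.23 to 0.12. The 44 proteasome genes had a median of 0.03, and 1 of them was higher at an unadjusted p under 0.05 (PSME2, a subunit of the PA28 activator, 0.38, unadjusted p = 0.0458).

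**Figure D2:**
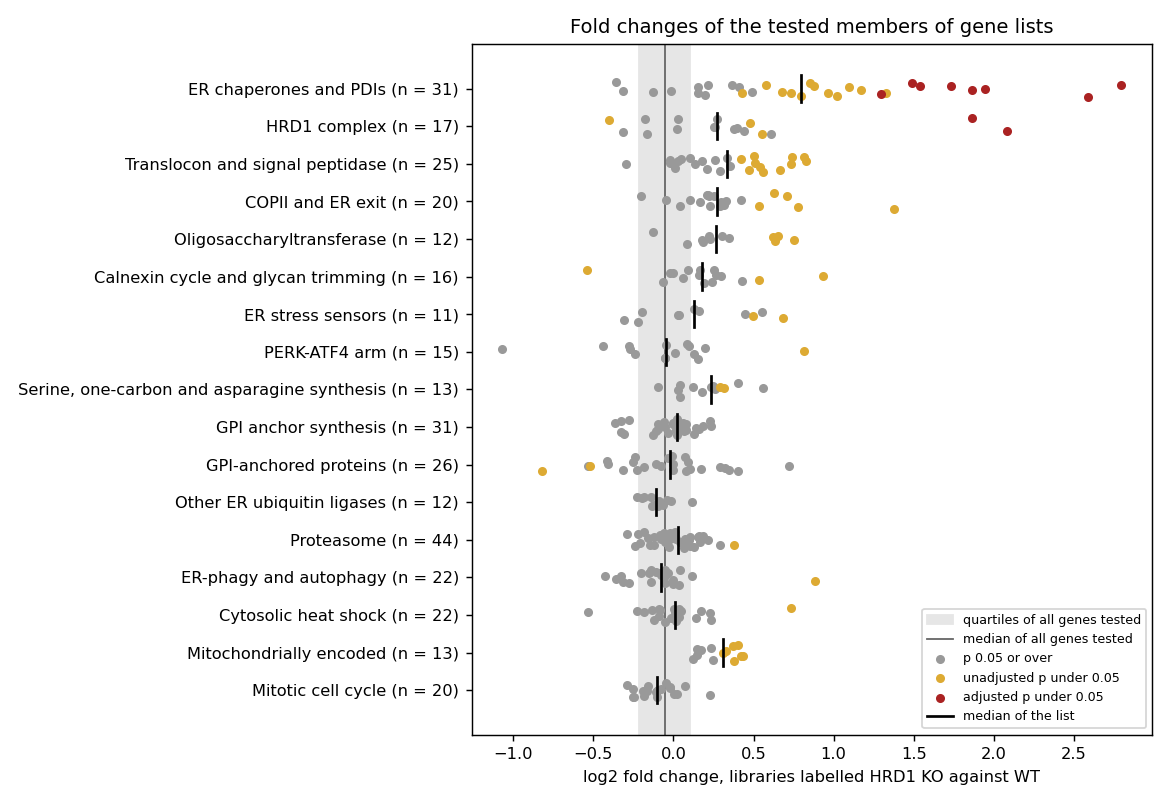
Log2 fold change (libraries labelled HRD1 KO against WT, n = 3 each) of every tested member of 17 gene lists; black bars are list medians, the grey band spans the quartiles of all 15129 genes tested (-0.22 to 0.11), and the grey line is their median (-0.05). Red points passed an adjusted p under 0.05 and yellow points an unadjusted one; the red points are in the chaperone and HRD1 complex lists.

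Genes of the entry into the ER, which thread, cleave and glycosylate new chains, had positive list medians with no member past the adjustment. In the list of the translocon and signal peptidase, 0 of 25 genes passed the adjustment, while 11 were higher and 0 lower at an unadjusted p under 0.05, with 8 above and 1 below without overlap. The list median was 0.33. SEC61G, the small subunit of the protein-conducting channel, was at 481, 459 and 434 FPKM in WT and at 809, 787 and 694 in the labelled libraries (log2 0.73, SE 0.12, unadjusted p = 0.000337). The 2 groups of SEC61G did not overlap. The channel subunits SEC61A1 (0.82) and SEC61B (0.74) had unadjusted p of 0.000482 and 0.000484, and the translocon-associated protein SSR4 had a log2 fold change of 0.56 (unadjusted p = 0.0026). In the oligosaccharyltransferase, which transfers the N-glycan, 4 of 12 genes were higher at an unadjusted p under 0.05 and the median was 0.26. They were MAGT1 (0.76), STT3A (0.62), OSTC (0.65) and RPN1 (0.64). STT3A, the catalytic subunit that works beside the translocon, was at 119, 123 and 117 FPKM in WT and at 176, 196 and 180 in the labelled libraries.

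Of 16 genes of the calnexin cycle and glycan trimming, 2 were higher and 1 lower at an unadjusted p under 0.05 and 0 passed the adjustment in limma. The median was 0.18, and it was 0.31 without replicate 1 and 0.048 without replicate 2. CANX (calnexin), the membrane-bound lectin chaperone, was at 244, 347 and 279 FPKM in WT and at 290, 598 and 948 in the labelled libraries (log2 0.93, SE 0.26, unadjusted p = 0.0072). The 3 pairs of CANX differed by 0.25, 0.79 and 1.77. MLEC, a lectin of early glycans, was at 0.54 (unadjusted p = 0.0073) and NGLY1, the cytosolic enzyme that strips N-glycans from ERAD substrates, at -0.54 (unadjusted p = 0.0113).

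Of 20 genes of COPII coats and ER export, 0 passed the adjustment in limma and 5 were higher and 0 lower at an unadjusted p under 0.05, 6 did not overlap, and the median was 0.27 (0.45 without replicate 1). SURF4, a cargo receptor for soluble proteins, was at 74.96, 74.92 and 79.88 FPKM in WT and at 125, 128 and 141 in the labelled libraries (log2 0.78, unadjusted p = 0.000532). SEC24D, a cargo-binding coat subunit, had a log2 fold change of 1.38 (unadjusted p = 0.001), KDELR2, which returns escaped ER chaperones, of 0.71 (unadjusted p = 0.0027), and the outer coat subunits SEC13 and SEC31A of 0.63 (unadjusted p = 0.0068) and 0.53 (unadjusted p = 0.0144).

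None of the 11 sensor and transducer genes passed the adjustment, and 2 were higher at an unadjusted p under 0.05, CREB3L2 (0.69, unadjusted p = 0.0293), an ATF6 relative, and EIF2AK3 (0.50, unadjusted p = 0.0373), with a list median of 0.13. ATF6 itself had 14.3, 17.8 and 17.6 FPKM in WT and 13.4, 20.5 and 21.4 in the labelled libraries (log2 0.13, unadjusted p = 0.475). ERN1 was at -0.22 (unadjusted p = 0.472). Of 15 genes of the PERK and ATF4 arm, DDIT3 (CHOP), a proapoptotic transcription factor, was the 1 at an unadjusted p under 0.05. DDIT3 was at 34.8, 23.0 and 8.21 FPKM in WT and at 52.1, 48.2 and 14.4 in the labelled libraries, so the groups overlapped while each pair was higher (log2 0.82, SE 0.17, unadjusted p = 0.0017). ATF4 mRNA differed by 0.13 (unadjusted p = 0.315), and the list median was -0.04.

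The list of serine, one-carbon and asparagine synthesis, which ATF4 is known to drive, held 13 tested genes. PYCR1, an enzyme of proline synthesis also in the list (0.32, unadjusted p = 0.0394), and PHGDH (0.29, unadjusted p = 0.0474) were higher at an unadjusted p under 0.05. The list median was 0.23 and -0.06 in pair 1 alone, and without replicate 3 it was -0.0001. Of 10 amino acid transporters, the neutral amino acid carriers SLC1A4 (1.14, unadjusted p = 0.000839) and SLC1A5 (0.40, unadjusted p = 0.0187) were. SLC1A4 was at 4.85, 2.27 and 4.18 FPKM in WT and at 9.52, 5.58 and 9.81 in the labelled libraries.

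In XBP1, SEL1L, CREB3L2 and SEC24D, which were picked from several lists after their values were seen, pair 1 differed from the other pairs. XBP1 (ENSG00000100219), whose spliced product drives ERAD and secretory genes, was at 215, 183 and 133 FPKM in WT and at 114, 399.94 and 364 in the labelled libraries. It was thus lower in pair 1 (-0.92) and higher in pairs 2 and 3 (1.13 and 1.46), with a log2 fold change of 0.56 (SE 0.40, adjusted p = 0.936). SEL1L differed by -0.21, 1.13 and 0.90, CREB3L2 by -0.07, 1.03 and 1.10, and SEC24D by 0.55, 1.85 and 1.73 in pairs 1, 2 and 3. Without the replicate 1 pair, the one that went the other way or least far, XBP1 was at 1.29 (adjusted p = 0.0307) and SEC24D at 1.79 (adjusted p = 0.022), which is no support for a change. PPIB and SDF2L1 had their largest difference in pair 1 instead (1.37 and 2.51). FPKM per gene does not separate spliced from unspliced XBP1.

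The 2 promoter motifs shown above were searched on both strands of 35116 RefSeq promoters of 27305 genes. ERSE was found in 27 of them (0.0769%) and ERSE-II in 19 (0.0541%). Of the 12 genes called, 10 had a promoter in the table, and 7 of these held either motif (4 ERSE, 3 ERSE-II). Over the whole table, tested or not, either motif was found for 44 of 27305 genes, of which 29 were tested. Both motifs were known beforehand as elements of ER stress genes, so their presence in such genes is no separate support. PDIA4, MANF and SLC22A31 held neither in these windows. Among the 16 tested genes with ERSE, 4 rose, 9 were higher and 0 lower at an unadjusted p under 0.05, 8 lay above without overlap, and the median log2 fold change was 0.83. Of the 13 tested genes with ERSE-II, 3 rose, 4 were higher and 0 lower at an unadjusted p under 0.05, and the median was 0.12. The XBP1-type element UPRE (TGACG followed by TGG) was in 0.729% of promoters. Of 128 tested genes with it 1 rose (HYOU1), 14 were higher and 1 lower at an unadjusted p under 0.05, and the median was 0.09. The ATF4-type element CARE (TTGCA followed by TCA) was in 0.866% of promoters, and of 75 tested genes with it 1 rose (HERPUD1), 4 were higher and 3 lower, with a median of -0.01. A match describes letters only and was not tested as a binding site.

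**Figure D3:**
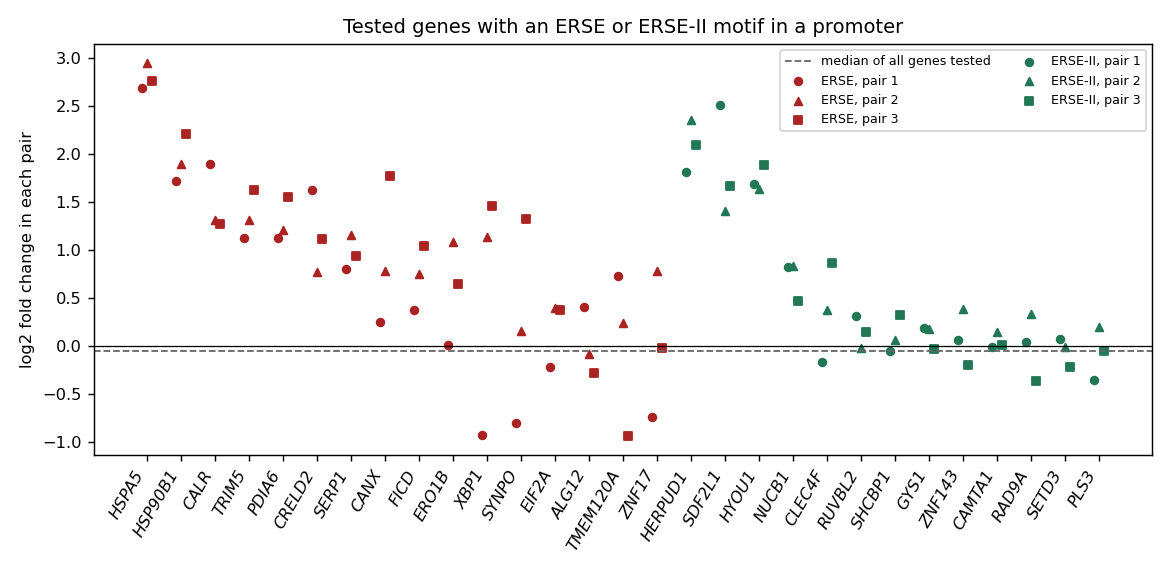
Log2 fold change in each of the 3 pairs (marker shapes) for the tested genes with an ERSE (red, 16 genes) or ERSE-II (green, 13 genes) motif in a promoter, ordered by fold change; the dashed line is the median of all genes tested (-0.05). The points of HSPA5, HSP90B1, CALR, PDIA6, HERPUD1, HYOU1 and SDF2L1 lie above 1 in all pairs, whereas XBP1 has pair 1 below 0.

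Further ERSE genes with a difference at an unadjusted p under 0.05 were SERP1, CRELD2, TRIM5, CANX and ERO1B, and 2 of these share the site with a neighbour transcribed the other way. These genes, and FICD and NUCB1, were picked by the motif after the values were seen. The site of CANX, those of the shared promoters as read from SERP1 and CRELD2, and that of TRIM5 are given for comparison with those above.
CANX, chr5:179698773-179698801, plus strand: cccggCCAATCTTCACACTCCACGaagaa
SERP1, chr3:150546705-150546733, minus strand: tcatgCGTGGAGACAGCGAATTGGtgttt
CRELD2, chr22:49918534-49918580, plus strand: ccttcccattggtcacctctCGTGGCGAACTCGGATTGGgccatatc
TRIM5, chr11:5685110-5685138, minus strand: ccctaCGTGGAGAAATGCCATTGGcccat
SERP1, a small membrane protein that protects new chains at the translocon, was at 129, 132 and 118 FPKM in WT and at 225, 293 and 226 in the labelled libraries (log2 0.97, SE 0.14, unadjusted p = 0.000153). EIF2A, which starts on the other side of the same site, had 103, 96.5 and 89.3 FPKM in WT and 88.7, 127.5 and 116 in the labelled libraries (0.19, unadjusted p = 0.305). CRELD2 was at 1.17 as given above, while ALG12, a mannosyltransferase of N-glycan assembly on the other side of its site, was at 0.02 (unadjusted p = 0.936) with overlapping groups. In both sets of neighbours one gene passed the unadjusted threshold and the other did not. The difference between neighbours was not tested.

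TRIM5, a cytosolic antiviral ubiquitin ligase, was at 2.61, 4.46 and 3.47 FPKM in WT and at 5.83, 11.24 and 10.9 in the labelled libraries (log2 1.36, SE 0.22, unadjusted p = 0.000332, adjusted p = 0.176). The groups did not overlap. ERO1B, an oxidase that recharges PDIs, was at 0.58 (unadjusted p = 0.0364) and FICD, which modifies BiP, at 0.72 (unadjusted p = 0.0504). NUCB1, a Golgi calcium-binding protein with an ERSE-II site, was at 0.71 (unadjusted p = 0.0019).

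SLC22A31 and the pseudogene belonged to none of the lists. SLC22A31 (ENSG00000259803; chromosome 16, 89195761 to 89201651, minus strand), a little-studied member of the organic ion transporter family, was at 6.23, 5.25 and 3.51 FPKM in WT and at 30.9, 23.2 and 26.5 in the labelled libraries (log2 2.43, SE 0.21, adjusted p = 0.0089). ENSG00000284660 (chromosome 3, 125766601 to 125766818, plus strand), a transcribed pseudogene that lies within a long noncoding RNA gene on the same strand, was listed at 0 in all 3 WT libraries and at 15.96, 12.8 and 18.4 FPKM in the labelled libraries (adjusted p = 0.0016). It passed the filter on FPKM only through the group where it was high, so its call is no support for a difference, and in the fit of 9 libraries its adjusted p was 0.0753. No fold is given against a group at 0. Its fragments could have been split with the overlapping gene by the authors' estimate.

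No gene passed the adjustment downward, at limma adjusted p under 0.05, and the lower genes of the naming rule are given as values. RN7SK (ENSG00000283293), the small nuclear RNA that holds the elongation factor P-TEFb, was at 287, 779 and 178 FPKM in WT and at 106, 162 and 77.9 in the labelled libraries (log2 -1.63, SE 0.21, adjusted p = 0.0805). Its adjusted p was 0.0344 with a pseudocount of 1, 0.002 without replicate 2, 0.0014 without replicate 3 and 0.106 without replicate 1. RMRP, the RNA of RNase MRP, was at 161, 465 and 141 FPKM in WT and at 18.5, 63.6 and 68.8 in the labelled libraries (log2 -2.34, adjusted p = 0.151). UNCX, a homeobox transcription factor, was at 26.4, 21.0 and 2.09 FPKM in WT and at 0.54, 1.06 and 0.76 in the labelled libraries (log2 -3.63, adjusted p = 0.26). Without replicate 2 or 3 the adjusted p was 0.00046 or 3.28e-05 for UNCX and 4.28e-05 or 1.55e-05 for RMRP, and without replicate 1 it was 0.359 and 0.229. In UNCX the WT library of replicate 3 was thus near the level of the labelled libraries. The passing of the filter on FPKM rested on WT in UNCX. RN7SK, RMRP and UNCX were picked for groups that do not overlap. The small adjusted p with 1 pair left out are therefore no support for a change. The copies MIR3648-1 and MIR3648-2 had identical values, with 2 of 3 labelled libraries at 0, and cannot be told apart. CAPRIN2 (-0.84), TRABD-AS1 (-0.88), FOXC1 (-0.68) and LINC01786 (-1.32) were lower in all 3 pairs, as the naming rule required, with adjusted p of 0.421 to 0.479.

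Libraries were made from polyA RNA, and RN7SK, RMRP and the canonical histone mRNAs carry no polyA tail. With 2 lists added after the values were seen, 15 of 36 tested replication-dependent histone genes were lower and 0 higher at an unadjusted p under 0.05, and 8 did not overlap. The median was -0.99, and it was -0.18, -1.56 and -0.65 in pairs 1, 2 and 3. H2AC11 was at 6.91, 14.8 and 7.16 FPKM in WT and at 2.76, 4.34 and 1.54 in the labelled libraries (log2 -1.73, adjusted p = 0.113). Summed over 69 histone genes, WT libraries had 451, 602 and 291 FPKM and the labelled libraries 431, 375 and 166. Of 12 tested small RNAs without a tail, 3 were lower (RN7SK, RMRP and SCARNA2) and SCARNA12 (0.64) was higher at an unadjusted p under 0.05, and their median was -0.39. SCARNA2 passed the filter only through WT (4.57, 3.87 and 6.04 FPKM, against 0.59, 0 and 0.76), and its log2 fold change was set by the pseudocount (-3.64, and -2.03 with a pseudocount of 1). WT replicate 2 held the highest sum of such RNAs (5699 FPKM, against 1382 to 2588 in the other 5 libraries). The 20 mitotic genes (median -0.10, 0 at an unadjusted p under 0.05 in limma, 0 called) and the 21 DNA replication genes (median -0.02, with CDC6 at 0.38 and CCNE2 at -0.63 past the unadjusted threshold) give the cell cycle measured beside the histones. The part of carried-over RNA without a tail in these differences was not tested.

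**Figure D4:**
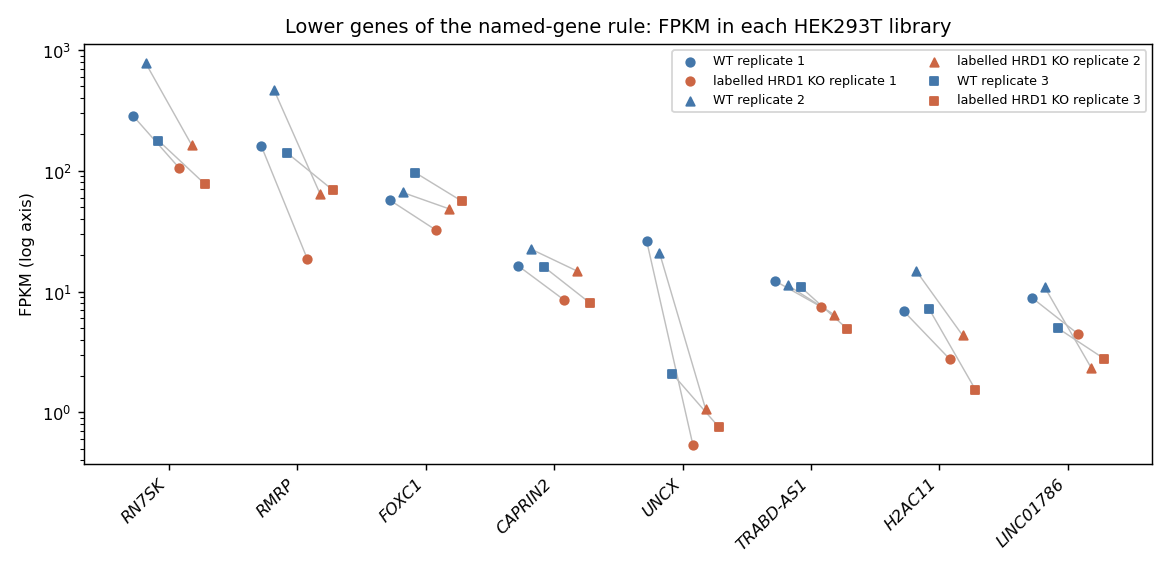
FPKM (log axis) of 8 lower genes of the naming rule in each library, drawn as in the plot of called genes. The orange points of each gene lie below all its blue points, which the naming rule required. The WT values of RN7SK spread from 178 to 779 and those of UNCX from 2.09 to 26.4, while those of TRABD-AS1 lie between 10.91 and 12.25.

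All 13 mitochondrially encoded genes had positive fold changes, 7 at an unadjusted p under 0.05, and the median was 0.31, but in none did the groups stay apart. MT-CO2, a subunit of cytochrome oxidase, differed by 0.38 (unadjusted p = 0.0078), MT-ATP6 by 0.40 (unadjusted p = 0.01), MT-CYB by 0.44 (unadjusted p = 0.0107) and MT-ND3 by 0.42 (unadjusted p = 0.0114). Their sum was 108805, 78225 and 127911 FPKM in WT and 121740, 103386 and 165537 in the labelled libraries. With quantile normalization the list median was 0.084.

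The GPI anchor is a glycolipid that the GPI transamidase attaches to ER proteins. The study reported PIGK, the catalytic subunit of this enzyme, as an ERAD substrate. Its evidence was a screen of proteins bound to SEL1L, raised PIGK protein and HRD1-dependent ubiquitination. PIGK protein was also lost more slowly in knockout cells. That result concerns PIGK protein, and the study found its mRNA unchanged. Of 31 genes of GPI anchor synthesis and attachment none was called or reached an unadjusted p under 0.05 in limma (0 and 0), and the median was 0.02. Of 26 genes of GPI-anchored proteins, LYPD1, a modulator of nicotinic receptors (-0.82, unadjusted p = 0.0081), and the glypican GPC3 (-0.52, unadjusted p = 0.0323) were lower. The median of that list was -0.02.

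The medians of the remaining lists lay between -0.24 and 0.24. Members named with a list passed the unadjusted threshold, which 2.78% of all genes tested passed upward and 3.05% downward. Cytosolic heat shock genes (22 tested) had a median of 0.01, with the small chaperone HSPB1 at 0.73 (unadjusted p = 0.0269). NRF2 targets (15 tested) had a median of -0.06, with heme oxygenase HMOX1 at -0.52 (unadjusted p = 0.0447). ER-phagy and autophagy genes had a median of -0.08 with WIPI1 at 0.88 (unadjusted p = 0.0343), cholesterol synthesis genes of 0.10 with MVD (0.46) and NSDHL (0.41) among the members past the unadjusted threshold, MHC class I and peptide loading of 0.19 with the trimming peptidase ERAP1 (0.89, unadjusted p = 0.0422), and interferon response genes of 0.24 with 0 members at an unadjusted p under 0.05 in limma and 0 called. Lysosomal hydrolases had a median of 0.00 with CTSZ at -2.03 (unadjusted p = 0.0064), genes of mitochondria-ER contacts of -0.06, and nuclear long noncoding RNAs of -0.08. CTSZ was at 9.21, 5.01 and 1.07 FPKM in WT and at 0.79, 1.01 and 0.72 in the labelled libraries, so its passing of the filter rested on WT. In collagens and matrix (median 0.12), the fibronectin gene FN1 (0.62), LAMA1 (0.70), P3H1 (0.37), SPARC (1.07) and COL1A1 (0.51) were higher and LAMB2 (-0.67) was lower. SPARC was at 0.13 FPKM or less in replicate 3 of both groups, against 7.43 to 31.3 in the other libraries. HSPB1 and SPARC had the other sign in pair 3 (-0.17 and -0.35), as had WIPI1 in pair 1 (-0.08). In pair 1 HMOX1 was at 0.001.

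Among targets of p53 (median -0.24), TP53I3 (0.87) was higher and PHLDA3 (-0.64) and GDF15 (-1.29) were lower at an unadjusted p under 0.05. PFKFB4 (-0.71) and ANKRD37 (-0.73) were lower among genes of glycolysis and hypoxia (median -0.09), JUND (-0.38) and KLF10 (-0.69) were lower and FOSB (0.74) higher among immediate-early genes (median -0.15). Of the HEK293T identity genes (median -0.07), the neurofilament genes NEFM (1.34, unadjusted p = 0.0022) and INA (0.72, unadjusted p = 0.0297) were higher and EYA1 (-0.79, unadjusted p = 0.0265) was lower. NEFM was at 23.0, 29.7 and 39.98 FPKM in WT and at 84.6, 104.2 and 50.2 in the labelled libraries, with groups that did not overlap. In pair 3 it differed by 0.33. Both neurofilament genes varied widely within SEL1L KO, with NEFM at 0.34, 0.11 and 50.9 FPKM and INA at 0.51, 0.19 and 13.8. ANKRD37 and INA had the other sign in pair 3 (0.03 and -0.03), as had KLF10 in pair 2 (0.07).

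Loss of the scaffold SEL1L in the same line gives the nearest comparison, and the 2 knockouts share the WT libraries, so the difference between them was tested instead of their agreement. In a fit over the 9 HEK293T libraries, 2 of 15129 genes differed at an adjusted p under 0.05 (0.0132%) and 1124 at an unadjusted one (7.43%). The 2 genes were IFITM2, an interferon-induced membrane protein, higher with HRD1 KO by 2.20 (SE 0.20, adjusted p = 0.0208), and HSBP1L1, lower by 2.35 (SE 0.23, adjusted p = 0.0223). Neither differed from WT at the adjusted threshold in the labelled libraries, and neither passed without the replicate block (adjusted p = 1.0 for both).

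IFITM2 was at 30.8, 29.8 and 10.9 FPKM in WT, at 72.8, 55.9 and 14.1 in the labelled libraries, and at 11.78, 11.02 and 4.44 in SEL1L KO. HSBP1L1 was at 6.50, 6.60 and 2.34 FPKM in WT, at 3.14, 2.19 and 1.51 in the labelled libraries, and at 18.7, 13.5 and 6.03 in SEL1L KO. In each replicate number the 2 knockouts lay on opposite sides of WT for both genes.

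None of the 12 genes called against WT differed between the knockouts at the adjusted threshold (0 of 12 in limma). At an unadjusted p under 0.05, 6 were higher with HRD1 KO and 0 lower, against 634 higher and 490 lower over all 15129 genes. The 12 were selected for high values in the same labelled libraries, which tilts this difference upward. The one-sided count is therefore no support for a larger change with HRD1 KO. HSPA5 was at 920, 1886 and 868 FPKM in SEL1L KO, lower than its HRD1 KO partner in each replicate number (difference 0.44, SE 0.10, unadjusted p = 0.0021, adjusted p = 0.468). PDIA4 (0.57, SE 0.12, unadjusted p = 0.000786), HYOU1 (0.56, SE 0.14, unadjusted p = 0.0025), CALR (0.45, SE 0.14, unadjusted p = 0.0092) and HSP90B1 (0.44, SE 0.13, unadjusted p = 0.0076) had differences of similar size, and ENSG00000284660 was listed at 0 in 1 SEL1L KO library. MANF (-0.13, SE 0.18) and DERL3 (-0.30, SE 0.19) had the opposite sign and unadjusted p of 0.464 and 0.159. The chaperone list of 31 genes holds 8 of the 12. In it 26 differences were positive, 6 of them at an unadjusted p under 0.05, with a median of 0.19. The translocon list had 6 of 25 higher with HRD1 KO and a median of 0.14. Some lists outside the ER folding machinery had larger medians. They included collagen and matrix genes (0.35, 10 of 32 higher), interferon response genes (0.27) and mitochondrially encoded genes (0.23, 5 of 13 higher, all 13 positive). Many others had smaller medians, such as proteasome genes (0.06) and the PERK and ATF4 arm (-0.21). The median over all genes tested was 0.01.

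**Figure D5:**
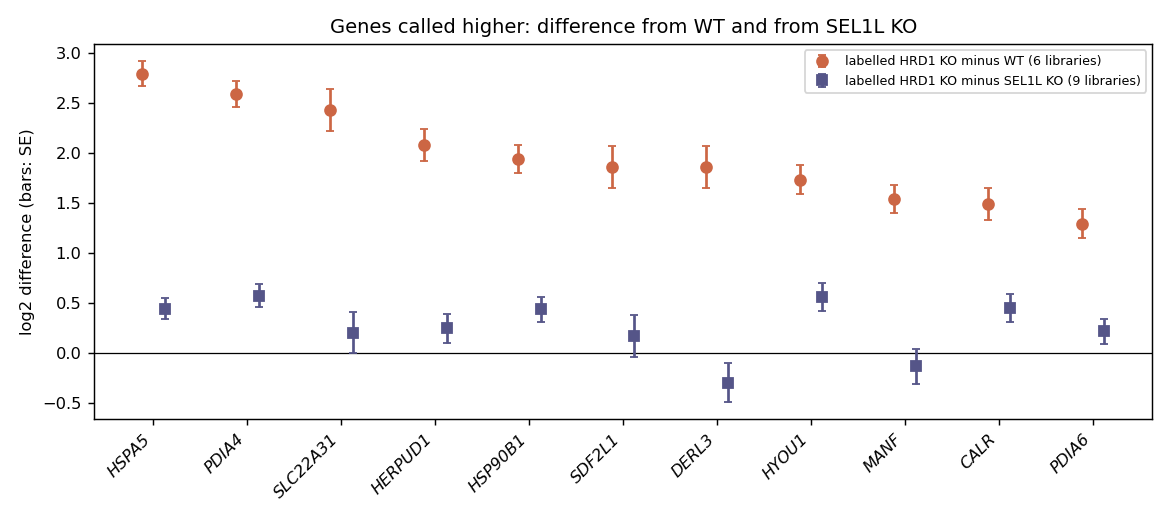
Log2 differences with SE for the 11 named genes called higher, against WT in orange circles (6 libraries) and against SEL1L KO in blue squares (9 libraries). The differences from WT run from 1.29 to 2.80, and those from SEL1L KO from -0.30 to 0.57.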

How the data were processed

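PolyA RNA of 9 HEK293T cultures, 3 for each genotype, was sequenced as paired ends. The authors mapped reads to GRCh38 with STAR 2.7.8a and estimated abundance with RSEM 1.3.3. The deposited values are RSEM's FPKM per gene, to 2 decimals. The authors' own test (DESeq2) needs counts and was not repeated. RSEM divides shared reads by estimate, so near-identical copies are uncertain, and strandedness is not given in the sources used here.

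Genes with FPKM of at least 1 in 3 or more of 6 libraries were tested with limma 3.58.1 (R 4.3.3; lmFit, eBayes with a variance trend) on log2(FPKM + 0.1), with the replicate number as a block. P-values are two-sided. The numbers pair the libraries: deviations from group means correlated at 0.491, 0.293 and 0.533 for the same number and at -0.461 to -0.021 for others. The check came from the data, since the labels do not say what a number marks. With the block, p-values measure how far the within-pair differences vary between the 3 pairs, smoothed over genes of similar level. They do not cover differences between separately made WT and HRD1 KO lines, and the spread may be partly technical. Within groups at most 0.39% of values were identical, so each library counted as 1 sample. The fit and the depth estimate were tested on simulated data.

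Genes were named by rule: the HRD1 complex, all called genes, the 10 higher and 10 lower with the smallest p (mean FPKM of at least 5, no overlap, same sign in all pairs), and up to 4 members per list (up to 6 where that covers all members past a threshold). The comparison, members and lists were chosen with earlier results of these data known. Genes with a promoter motif were chosen by the motif. Positions are from GENCODE 44 and promoters from RefSeq (GRCh38.p14). Python 3.11.15, pandas 2.3.3 and matplotlib 3.10.9 were used for tables and plots.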

Additional observations from a re-analysis of the deposited data

Results flagged for a closer look

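For 3 genes flagged here the 2 knockouts lay on opposite sides of WT in every replicate number or differed by the test. The number of such genes among all 15129 is not given here. Between the knockouts, 2 genes (0.0132%) differed at an adjusted p under 0.05 and 1124 (7.43%) at an unadjusted one in limma. IFITM2 differed by 2.20 on the log2 scale (HRD1 KO minus SEL1L KO; 0.84 and -1.36 against WT, adjusted p = 0.0208 in limma), and HSBP1L1 by -2.35 (-1.06 and 1.29 against WT, adjusted p = 0.0223). FN1 differed by 1.14 (0.62 and -0.52 against WT), and its adjusted p of 0.465 did not pass.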

How the results depend on the processing

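Against the 12 higher and 0 lower genes called, the fit without the replicate block called 2 and 0, the fit of all 9 libraries 25 and 1, no filter on FPKM 0 and 0, and no variance trend 3 and 1. A pseudocount of 1 or 0.5 called 2 genes lower. Leaving out 1 pair gave 16 to 56 genes higher and 2 to 47 lower. The 12 genes were all kept without replicate 2 or 3 (103 and 48 called in all), and 11 without replicate 1, where DERL3 was lost. Without the variance trend 1 of the 12 (ENSG00000284660) was kept, and with no filter 0. The fit of 9 libraries kept the other 11 and lost ENSG00000284660. Median-ratio scaling lost PDIA6 and SDF2L1 and quantile normalization PDIA6. At an unadjusted p under 0.05, against 421 higher and 462 lower, the fit without the block gave 135 and 117, and no filter gave 699 lower. The median of all genes was -0.02 with median-ratio scaling and -0.015 with quantile normalization. With 1 pair left out, ERN1 ranged from -0.37 to 0.043 and ALG12 from -0.18 to 0.16, both with the sign turned without replicate 1. The other named genes with a fold change against WT kept their direction under every alternative run. The cause of these differences was not tested. Depth varied 1.56 times and limits genes of low FPKM.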
